A study of Mus musculus with 96 samples.

Results

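Abundant proteins of blood plasma that hepatocytes make were followed through 10 genes, *Alb*, *Ttr*, *Apoa1*, *Apoa2*, *Fga*, *Fgb*, *Fgg*, *Serpina1c*, *Serpina1d*, and *Ahsg*, chosen by symbol. They were 10 of the 41575 gene symbols in the count table, of which 22493 had a count in at least 1 library. RNA was measured by MuSeq, a bulk method that enriches reads from the 3′ ends of transcripts and labels each RNA sample with a barcode before pooling. The 96 libraries came from whole organs of wild-type mice and of Scx-/- mice, which lack scleraxis, a transcription factor of tendons. How the allele was made is not described in the sources used here. All mice were 3 weeks old. Each genotype gave 3 libraries in each of 16 tissues. Beside liver these were the gut (stomach, intestine, rectum), brain (cortex, hippocampus), skeleton and muscle (bone, cartilage, muscle), and heart, vascular samples, lung, spleen, kidney, bladder, and adipose. Levels are given in CPM, the count of a gene scaled to library size. The libraries labelled adipose held 428050 to 559914 CPM of genes of the exocrine pancreas, so adipose is used here as a label only. In whole organs, fewer cells of a type and less RNA per cell cannot be told apart.

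Hepatocytes release most plasma proteins directly into the blood. Albumin (*Alb*) holds the osmotic pressure of plasma and carries fatty acids and hormones, and transthyretin (*Ttr*) carries thyroid hormone and the retinol-binding protein Rbp4. Apoa1 and Apoa2 are the main proteins of high-density lipoprotein, and Fga, Fgb, and Fgg are the chains of fibrinogen, which forms the clot. *Serpina1c* and *Serpina1d* belong to a mouse family of α1-antitrypsin genes, whose products inhibit proteases, and *Ahsg* encodes fetuin-A, which keeps calcium phosphate from precipitating. Outside liver, *Apoa1* is known from enterocytes of the small intestine, and *Ttr* from the choroid plexus of the brain and from endocrine cells of the gut and pancreas. Liver genes of this kind are read under shared transcription factors, among them HNF1, FOXA, and C/EBP proteins.

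Because the members were read together in liver, the bases upstream of their start sites were searched for letters that these factors are known to prefer. RefSeq promoters of build GRCm38.p6 were at hand for 9 of the 10 members, and 250 bases before each start were searched on both strands, with matches of different motifs allowed to overlap. The letters GTTAAT, the core of HNF1 sites, were found for 5 of the 9 members (*Alb*, *Fga*, *Fgb*, *Serpina1c*, and *Serpina1d*) and for 7.49% of all 27025 genes with a promoter. The FOXA letters TGTTTNC were found for 8 of the 9 members, all but *Fgg*, and for 19.9% of all genes. The C/EBP letters TTNNGCAA were found for 6 of the 9 members and for 10.8% of all genes. A gene counted once if any of its promoters held the letters. Per promoter the shares were 6.43%, 17.8%, and 9.56% of 32851. A match describes the letters and not the binding of a factor.

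The 120 bases before the RefSeq start of 4 members with GTTAAT are shown because the match lies close to the start in all of them, with GTTAAT, or its reverse complement ATTAAC, in capitals. All are written 5′ to 3′ on the strand of the gene. *Alb* is shown at chr5:90460750-90460869 on the plus strand, *Fgb* at chr3:83049864-83049983, *Serpina1c* at chr12:103904951-103905070, and *Serpina1d* at chr12:103773634-103773753, the last 3 on the minus strand.
Alb: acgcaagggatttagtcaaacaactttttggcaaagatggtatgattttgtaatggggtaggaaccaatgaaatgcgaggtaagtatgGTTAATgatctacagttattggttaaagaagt
Fgb: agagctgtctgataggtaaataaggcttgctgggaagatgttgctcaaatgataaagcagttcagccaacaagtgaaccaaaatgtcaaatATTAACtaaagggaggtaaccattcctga
Serpina1c: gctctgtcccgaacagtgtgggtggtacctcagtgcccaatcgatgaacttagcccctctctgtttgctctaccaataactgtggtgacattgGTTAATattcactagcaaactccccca
Serpina1d: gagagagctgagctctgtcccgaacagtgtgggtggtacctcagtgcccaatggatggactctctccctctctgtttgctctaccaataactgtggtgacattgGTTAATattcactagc

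The match began 32 bases before the RefSeq start in *Alb*, 29 in *Fgb*, 27 in *Serpina1c*, and 16 in *Serpina1d*. The GENCODE starts of *Alb*, *Serpina1c*, and *Serpina1d* lie further downstream, so for these genes the match is further from the start by GENCODE. In *Fga*, which is not shown, it began 43 bases before the RefSeq start, but the GENCODE start of this gene lies further upstream, so that the match falls inside the first GENCODE exon and is upstream by RefSeq alone. The upstream 250 bases of *Serpina1c* and *Serpina1d* were 84.3% identical in a global alignment, so these 2 matches are not independent.

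By the GENCODE M21 annotation of the same build, all 10 members are protein-coding. The fibrinogen genes lie together within 42140 bases at chr3:83007724-83049863, with *Fgg* and *Fga* on the plus strand and *Fgb* on the minus strand. *Alb* spans chr5:90460897-90476602, *Ahsg* chr16:22891277-22899449, *Apoa2* chr1:171225054-171226379, and *Apoa1* chr9:46228580-46230466. *Serpina1c* (chr12:103894926-103904887) and *Serpina1d* (chr12:103763594-103773592) lie in a cluster with *Serpina1a*, *Serpina1b*, and *Serpina1e* that spans 230820 bases.

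Library totals ran from 11244 to 1658192 counts (median 251640). In liver they were 245271 to 481409 in the 3 wild-type libraries and 580110 to 768443 in the 3 Scx-/- libraries, which did not overlap. *Scx* had a count in 12 of 48 wild-type libraries (80 counts in all) and in 1 of 48 libraries labelled Scx-/-, replicate 1 of cartilage with 9 counts. In liver *Scx* was at 0 in all 6 libraries, which allows up to 2.97 CPM in wild-type and 1.55 CPM in Scx-/- liver over the group (3 counts, counting error only), so it does not check the liver labels. The female-specific *Xist* was counted in liver libraries 1 and 3 of wild-type and 1 of Scx-/-, and the Y-linked *Ddx3y* in the other 3, so liver groups held different numbers of each sex. The counts of liver replicates varied beyond sampling noise in every pair of a group (chi-square over its degrees of freedom up to 12.4 in wild-type and 10.9 in Scx-/- liver).

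The liver label held against defining genes of hepatocytes. All 20 enzyme genes of a hepatocyte list were counted in each of the 6 liver libraries, at 24327 to 44781 CPM in sum. Of 16 hepatocyte transcription factors, 15 had counts there, led by *Cebpb* (387 ± 134 CPM, SD, n = 6), *Hnf4a* (231 ± 75.1), and *Onecut2* (171 ± 51.7).

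The 10 members took 16.7% to 21.7% of all counts in liver. *Alb* was the most counted gene of the whole liver table by its median of 92787 CPM, and *Ahsg* (33347.5 CPM) came at rank 3. By the median over the 6 libraries, *Ttr* held rank 6, *Apoa1* rank 8, *Apoa2* rank 9, and *Serpina1c* rank 13 of all genes. The other 4 members stood at ranks 18 to 24.

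Levels of different genes were compared per kilobase of exon. *Alb* led with 29154.5 to 44506 CPM per kilobase and did not overlap with any other member. *Apoa2* (13127 to 25876), *Ahsg* (14445 to 20044), and *Ttr* (9155 to 19165) followed and overlapped in this order. *Apoa1* had 6874 to 11937 CPM per kilobase and overlapped with *Ttr*. *Serpina1c* (781 to 6089) and *Serpina1d* (700.4 to 5181) spread most. By the median the fibrinogen genes were lowest per kilobase, with 1551.0 to 2560 for *Fgg*, 1121 to 1754 for *Fga*, and 1102 to 1582 for *Fgb*, and these ranges overlapped as well, while the lowest single values belonged to *Serpina1d* and *Serpina1c*. In 3′-enriched libraries division by length can place long genes too low, and its part in this order was not tested.

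**Figure D1:**
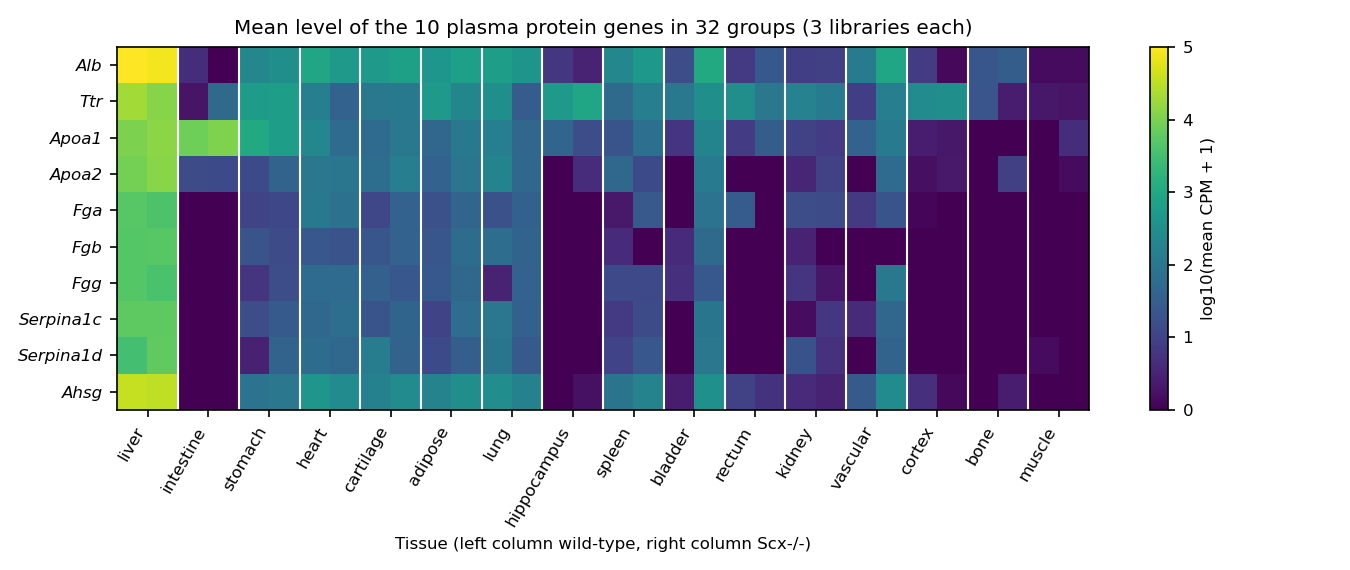
Mean CPM of the 10 genes in the 32 groups of tissue and genotype (3 libraries each), coloured by log10(mean CPM + 1), with tissues ordered by the median sum of the members. Liver is high for all 10 genes, *Apoa1* is also high in intestine, and *Ttr* outside liver is highest in hippocampus and stomach.

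All 10 members were higher in liver than in the mean of the other 15 tissues (adjusted p from 6.3e-53 for *Apoa2* to 8.1e-39 for *Serpina1d*, edgeR over all 13459 genes passing a filter on low counts, of which 16.5% were called higher in liver). Since many groups outside liver held no count, the size of this difference was read from the levels and from a fit with the other 90 libraries as 1 group. In that fit, the log2 fold change was smallest for *Apoa1* (5.21, SE 0.84) and *Ttr* (6.92, SE 0.52) and lay between 8.36 (*Serpina1d*) and 8.91 (*Fgb*) for the other 8. In CPM, the lowest liver library stood above the highest of the 90 other libraries for 9 members, by 3.40-fold for *Serpina1d* and up to 34.4-fold for *Ahsg*. The exception was *Apoa1*, with 8497 CPM in the lowest liver library and 14113 CPM in the highest library elsewhere, an intestine library.

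Members differed in how often they were counted outside liver. *Ttr* had a count in 79 of the 90 other libraries, *Apoa1* in 65, *Alb* in 64, *Ahsg* in 53, and *Apoa2* in 50. *Fga* (44), *Serpina1d* (43), *Serpina1c* (38), *Fgg* (36), and *Fgb* (34) were counted in fewer. The 3 fibrinogen genes thus had no count in 46 to 56 libraries, and their highest values outside liver were 161 to 267 CPM.

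All 10 members had at least 1 count over the 6 libraries of 9 tissues, liver included. In intestine and bone, 6 members had none, which allows up to 4.17 CPM in intestine and 4.77 CPM in bone. In hippocampus, muscle, and rectum 5 members had none, in cortex 4, and in vascular samples 1. Summed over the members, muscle held 0 to 14.2 CPM and bone 0 to 106 CPM.

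The comparison of genotypes in liver asked whether loss of *Scx* went with a change in these genes. Of the 10 members, 1 passed the test, *Apoa2*, which was higher in Scx-/- liver, beside 0.442% of the 13356 genes tested. At the thresholds used in the study (an unadjusted p under 0.05 and a log2 fold change beyond 1), applied here to edgeR, 0 of 10 members passed beside 4.29% of all genes. An unadjusted p under 0.05 was found for 3 of the 10 members, beside 5.18% of all genes, and DESeq2 with adjusted p called 0. The median log2 fold change of the members was 0.15, beside 0.06 over the 9997 genes with counts in both genotypes.

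*Apoa2* stood at 8513, 7049, and 10913 CPM in wild-type replicates 1 to 3 and at 13896, 12485, and 11977 CPM in Scx-/- replicates 1 to 3. All Scx-/- libraries lay above all wild-type libraries. The means were 8825 ± 1951 and 12786 ± 994 CPM (SD, n = 3), and the log2 fold change was 0.72 (SE 0.16, adjusted p = 0.0031 by edgeR). This call was lost with DESeq2 (adjusted p = 0.086), with library totals as scaling (0.070), with a filter on low counts (0.32), in a joint fit of all tissues (1), and without Scx-/- replicate 1 (0.11) or wild-type replicate 2 (0.17). Over all alternatives the adjusted p ran from 0.00015 to 1 and the log2 fold change from 0.53 to 0.87.

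*Apoa1*, the partner of *Apoa2* in high-density lipoprotein, was at 10847, 8497, and 12017 CPM in wild-type liver and at 12458, 14754, and 13146 CPM in Scx-/- liver. The groups did not overlap, and the log2 fold change of 0.54 (SE 0.16) missed the threshold (adjusted p = 0.095, edgeR). Without wild-type replicate 1 or 3 it passed, at 0.040 and 0.029.

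*Ttr* showed the opposite order, with 20747, 22730, and 17817.5 CPM in wild-type liver against 15034, 10858, and 12006 CPM in Scx-/- liver. All Scx-/- libraries lay below all wild-type libraries, with means of 20432 ± 2471 and 12633 ± 2157 CPM (SD, n = 3). The log2 fold change of -0.50 (SE 0.15) had an adjusted p of 0.11 by edgeR. It was called with library totals as scaling (-0.69, adjusted p = 0.00030), with RLE scaling (-0.62, 0.0027), and without Scx-/- replicate 1 (0.048) or wild-type replicate 3 (0.013). Library totals moved the median of all genes by -0.18 and RLE by -0.11 on the log2 scale, so that *Ttr* relative to the median gene differed little between scalings while the call did not hold under all.

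The ratio of members within a library does not depend on scaling. The ratio of *Apoa2* to *Ttr* CPM, chosen after their values were seen, was 0.410, 0.310, and 0.612 in wild-type liver and 0.924, 1.15, and 0.998 in Scx-/- liver. The ratio of *Apoa1* to *Ttr* was 0.374 to 0.674 in wild-type and 0.829 to 1.36 in Scx-/- liver. Both ratios were higher in every Scx-/- library than in every wild-type library. Their order follows from the separated CPM values of *Apoa2*, *Apoa1*, and *Ttr* and adds no evidence on any of these genes.

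*Alb* was at 94847, 91038, and 104234 CPM in wild-type liver and at 94535, 68279.8, and 80083 CPM in Scx-/- liver. The groups overlapped, and the log2 fold change was -0.07 (SE 0.11, adjusted p = 0.89, edgeR). *Ahsg* overlapped too, with 33871, 31736, and 44036 CPM against 32823.5, 36056, and 31958 CPM and a log2 fold change of 0.06 (SE 0.13). Its sign was negative with RLE scaling and with library totals, which moved the median of all genes by about as much (-0.11 and -0.18), so no direction is given.

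The chains of fibrinogen did not pass. *Fgg* was at 4516, 5357, and 4565.5 CPM in wild-type liver and at 3554, 3246, and 4015 CPM in Scx-/- liver, without overlap, and its log2 fold change was -0.23 (SE 0.19, adjusted p = 0.77, edgeR). *Fga* (4906, 4611, and 5278 CPM against 3376, 3748, and 4877 CPM) and *Fgb* (4381, 5259, and 4883 CPM against 4199, 4713, and 6028 CPM) overlapped between genotypes. The ratio of *Fgg* to *Fgb*, chosen after their values were seen, was 0.935 to 1.03 in wild-type liver and 0.666 to 0.846 in Scx-/- liver.

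Of the 10 members, 4 had CPM values that did not overlap between genotypes (*Apoa1*, *Apoa2*, *Ttr*, and *Fgg*), beside 9.01% of the genes tested. These values were scaled on library totals.

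**Figure D2:**
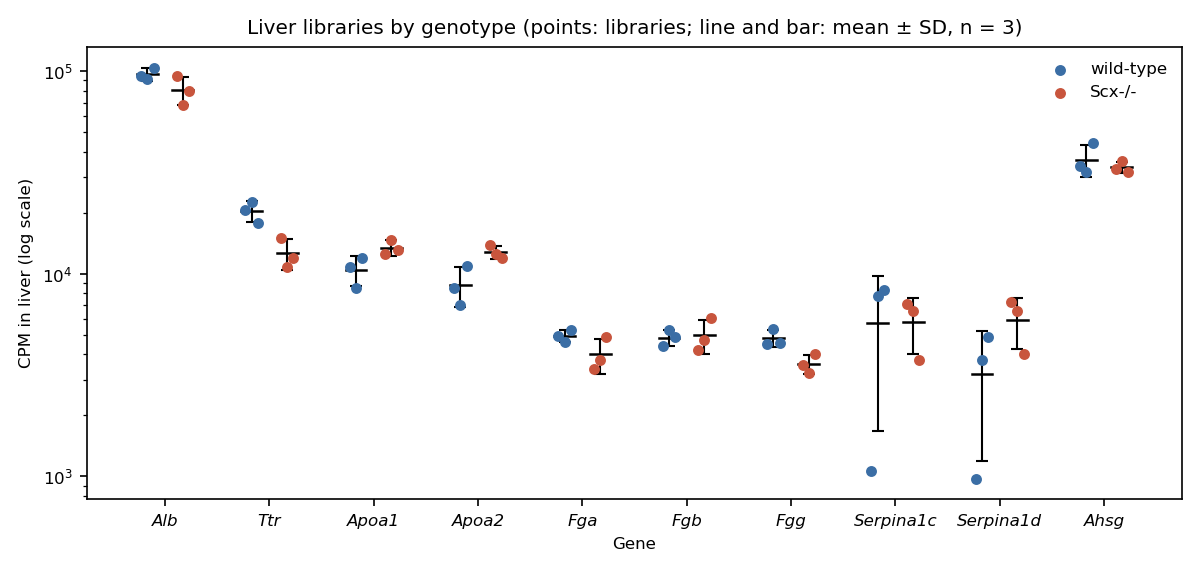
CPM of the 10 genes in the 6 liver libraries on a log axis, with wild-type in blue and Scx-/- in red. Each point is 1 library, and the line and bar are the mean ± SD of 3 libraries. The genotypes separate for *Ttr*, *Apoa1*, *Apoa2*, and *Fgg*, and 1 wild-type library stands low for *Serpina1c* and *Serpina1d*.

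The α1-antitrypsin genes varied most among liver libraries. *Serpina1c* stood at 1064, 7779, and 8288 CPM in wild-type liver and at 7108, 6528, and 3756 CPM in Scx-/- liver. *Serpina1d* stood at 976.3, 3767, and 4883 CPM against 7222, 6532, and 4029 CPM. Wild-type replicate 1 was low for both, and the log2 fold changes of 0.24 (SE 0.85) and 1.10 (SE 0.68) did not pass (adjusted p = 0.97 and 0.76, edgeR). Without that library the log2 fold change of *Serpina1c* was -0.26.

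The other family members did not share 1 pattern. *Serpina1b* held 3772 to 6140.3 CPM in all 6 liver libraries and was highest in wild-type replicate 1. *Serpina1e* was at 2.08, 8032, and 1669 CPM in wild-type liver and at 376, 86.8, and 58.6 CPM in Scx-/- liver. *Serpina1a* was at 37.4 CPM in wild-type replicate 1 and at 436 to 1096 CPM in the others, and *Serpina1f* was at 0 in all 6. Of the 5 family members tested, 0 were called by edgeR or DESeq2, and 0 had an unadjusted p under 0.05.

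These paralogs are similar enough that reads can fit several of them. Of all 100-base windows of the *Serpina1c* transcript, 56.2% also occurred in another of the 5 paralogs *Serpina1a* to *Serpina1e*, and 26.3% did for *Serpina1d*. Within the last 500 bases, where a 3′-enriched method places most reads, these shares were 9.73% and 2.74%. How the counting treated such reads is not given in the sources used here, so the split among the paralogs is uncertain. Their sum was 8219.6, 24866, and 19462 CPM in wild-type liver and 20570.2, 19338, and 13537 CPM in Scx-/- liver, and wild-type replicate 1 was low in the sum too.

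Together the 10 members took 18.5%, 18.8%, and 21.7% of the counts of wild-type liver and 19.4%, 16.7%, and 17.2% of those of Scx-/- liver. The means of 19.6% ± 1.78 and 17.8% ± 1.44 (SD, n = 3) differed by -1.87 percentage points, which a two-sided exact permutation test did not separate (p = 0.3, where 0.1 is the smallest value that 3 against 3 libraries allow). Without *Alb*, the difference was -0.30 percentage points (exact permutation p = 0.9). With all *Serpina1* paralogs counted, it was -2.12 (exact permutation p = 0.2).

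Sexes were not balanced between the liver groups, so values were compared within libraries with *Xist* (2 wild-type, 1 Scx-/-) and within those with *Ddx3y* (1 wild-type, 2 Scx-/-). The log2 ratio of mean CPM of Scx-/- over wild-type was 0.52 and 0.79 for *Apoa2*, -0.36 and -0.99 for *Ttr*, and -0.35 and -0.56 for *Fgg* in the 2 classes. For *Apoa1* it was 0.12 and 0.72. For *Serpina1c* it was 0.60 and -0.60, of opposite sign. With a term for these 2 classes in the edgeR fit, added after the data were seen, *Apoa2* was at 0.87 (SE 0.18, adjusted p = 0.00052), *Apoa1* at 0.63 (SE 0.18, 0.069), and *Ttr* at -0.47 (SE 0.16, 0.32), so that *Apoa2* was again the member called. *Alb* changed sign in that fit (0.027, SE 0.12). The term moved the median of all genes by 0.16 on the log2 scale. The deeper counting of the Scx-/- livers cannot be told apart from genotype.

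Other genes of the hepatocyte were read beside the members. Of 34 other plasma protein genes tested (36 listed), 2 rose in Scx-/- liver, 0 fell, and 32 did not pass. An unadjusted p under 0.05 was found for 14 of the 34, beside 5.18% of all genes. DESeq2 also called 2, *Rbp4* and *Serpina3k*, a protease inhibitor named here after its values were seen, which was at 10404 ± 5342 CPM in wild-type and 2567 ± 1194 CPM in Scx-/- liver (SD, n = 3) and did not pass by edgeR. *Rbp4*, the retinol carrier that travels with Ttr, was at 6246, 4774, and 6196 CPM in wild-type and 9103, 9660.4, and 9822 CPM in Scx-/- liver. Its log2 fold change of 0.91 (SE 0.17, adjusted p = 6.6e-05, edgeR) stayed under 0.05 without any 1 library. *Rbp4* rose while *Ttr* was lower without passing. The ratio of *Rbp4* to *Ttr*, chosen after their values were seen, was 0.210 to 0.348 in wild-type against 0.605 to 0.890 in Scx-/- liver. Its order follows from the separated values of both genes and adds no evidence on *Ttr*. *Apoc1*, a small apolipoprotein, rose by 0.69 (SE 0.17, adjusted p = 0.023, edgeR) and was called in 1 of 6 fits without a library. Its call was lost with DESeq2 (adjusted p = 0.088) and with the replicate block (adjusted p = 0.11, edgeR). The most abundant of the list, the iron carrier *Trf*, held 16305 ± 1507 CPM in wild-type and 13399 ± 1529 in Scx-/- liver (SD, n = 3) and did not pass.

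Of 20 hepatocyte enzyme genes, 7 rose, 0 fell, and 13 did not pass, beside 0.442% of all genes called. The median log2 fold change of the list was 0.80, and all 20 values were above 0. *Sds* (serine dehydratase) rose by 1.61 (SE 0.37), *Cps1*, the entry enzyme of the urea cycle, by 1.42 (SE 0.23), *Mat1a*, which makes S-adenosylmethionine, by 1.19 (SE 0.20), *Cyp2e1* by 1.18 (SE 0.20), and *Gnmt*, which uses S-adenosylmethionine, by 0.96 (SE 0.20). *Hpd* and *Tat*, enzymes of tyrosine breakdown, rose by 0.87 and 0.94. Without 1 library, *Cps1*, *Mat1a*, and *Cyp2e1* were called in 6 of 6 fits, *Gnmt* in 5, *Sds* in 3, and *Hpd* and *Tat* in 2 each. Adjusted p by edgeR ran from 1.4e-06 (*Cps1*) to 0.028 (*Tat*). With the replicate block the call of *Tat* was lost (adjusted p = 0.16, edgeR). The list sum was 24327 to 29871 CPM in wild-type and 37688 to 44781 CPM in Scx-/- liver, without overlap, while the sum of the 10 members overlapped. Other lists separated the genotypes too. The acinar list, of genes of the exocrine pancreas, summed to 291 to 489 CPM in wild-type and 521 to 826 CPM in Scx-/- liver, with a median log2 fold change of 1.2, values above 0 for 10 of 11 genes, and 0 genes called by edgeR or DESeq2 (1 at an unadjusted p under 0.05). The enterocyte list summed to 7653 to 10189 CPM in wild-type and 4582 to 6672 CPM in Scx-/- liver. A list of choroid plexus genes (482 to 607 CPM in wild-type, 369 to 457 CPM in Scx-/- liver) did not overlap either. Nor did a list of endocrine genes, at 0 to 4.08 CPM and 5.10 to 9.11 CPM. Their part in the enzyme values was not tested. DESeq2 called 5 of the 20, the filter on low counts left 2, the joint fit called 0, the fit with the sex marker term called 5, and leaving out 1 library gave 4 to 7.

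**Figure D3:**
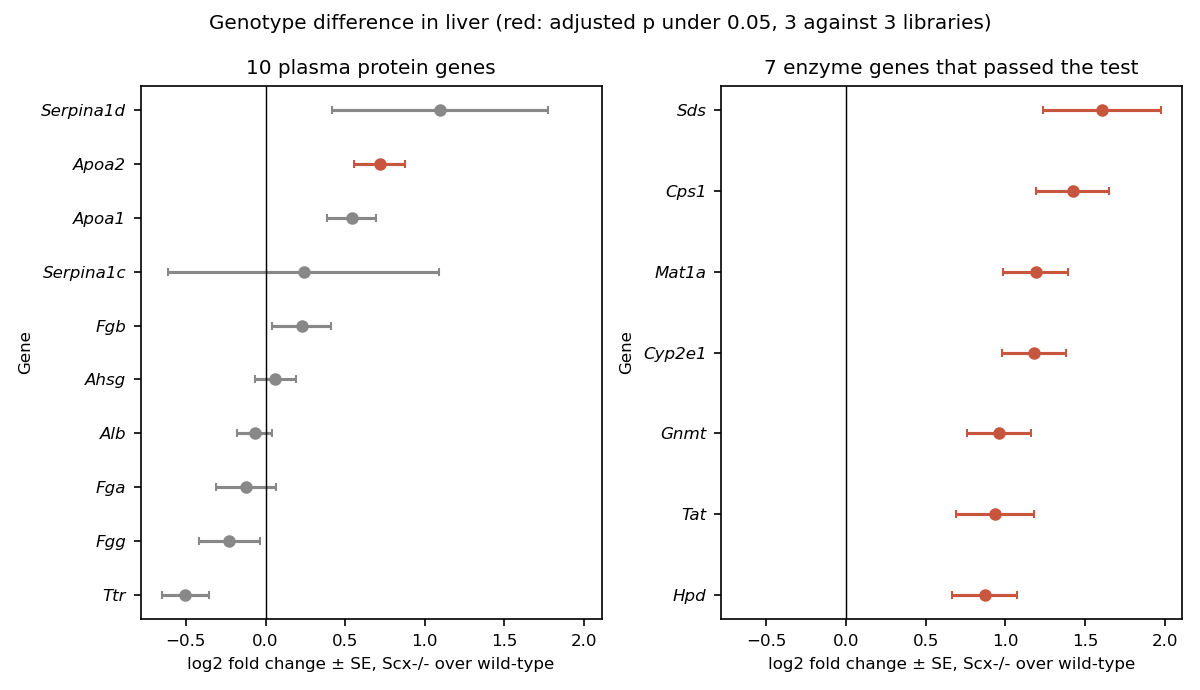
Log2 fold change of Scx-/- over wild-type liver with its SE for the 10 plasma protein genes (left) and the 7 hepatocyte enzyme genes that passed the test (right), 3 against 3 libraries. Red points have an adjusted p under 0.05. Values of the plasma protein genes lie on both sides of 0 with *Apoa2* called, and the 7 enzyme values lie between 0.87 and 1.61.

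Of 19 acute-phase genes tested, 1 fell and 18 did not pass by edgeR. An unadjusted p under 0.05 (edgeR) was found for 3 of the 19, beside 5.18% of all genes. DESeq2 called 1, a different gene, and gave no adjusted p for the gene that fell. The gene that fell, *Orm1*, was at 6.23, 273, and 0 CPM in wild-type liver and at 0, 5.10, and 0 CPM in Scx-/- liver, so the call rests on wild-type replicate 2 (adjusted p = 0.0031, and 0.96 without that library, edgeR). *Hp* (4524 ± 641 CPM, SD, n = 6) and *Itih4* (1738 ± 149) were abundant and did not pass. *Mt1*, a metal-binding gene that responds to stress, was at 897, 322, and 540 CPM in wild-type and at 808, 2778, and 5473 CPM in Scx-/- liver. The groups overlapped, and its log2 fold change of 2.51 (SE 0.93) did not pass (adjusted p = 0.75, edgeR). Of 15 hepatocyte transcription factors tested, 0 were called by edgeR or DESeq2 and 1 had an unadjusted p under 0.05, and their summed level was 1334 to 1969 CPM in wild-type and 1442 to 1846 CPM in Scx-/- liver. The fetal liver list had 0 of 4 tested genes called by edgeR or DESeq2 and 0 with an unadjusted p under 0.05, with *H19* at 1107 ± 1742 CPM in wild-type and 775 ± 80.3 CPM in Scx-/- liver (SD, n = 3).

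Markers of other liver cells were not called in any of 4 lists. By edgeR and by DESeq2 0 of them passed, and an unadjusted p under 0.05 was found for 1 gene each of the Kupffer, stellate and endothelial, and cholangiocyte lists and for 2 erythroid genes. The Kupffer cell list (10 of 10 tested) summed to 342 to 546 CPM in wild-type and 353 to 461 CPM in Scx-/- liver, led by *Clec4f*, *C1qc*, and *C1qb*. The list of stellate and endothelial cells (12 of 12 tested, led by *Dcn*, *Col3a1*, and *Stab2*) summed to 856 to 1317 and 996 to 1110.0 CPM. The cholangiocyte list (5 of 7 tested, led by *Spp1*, *Sox9*, and *Krt19*) summed to 73.4 to 185 and 87.9 to 146 CPM, and the erythroid list (8 of 10 tested, led by *Hba-a1*, *Hbb-bs*, and *Alas2*) to 328 to 1309 and 381 to 559.6 CPM. *Fabp1*, a fatty acid binder of liver and gut held in the enterocyte list, fell in liver by 0.84 on the log2 scale (SE 0.20, adjusted p = 0.011, edgeR). It was called in 3 of 6 fits without a library. Its call was kept with DESeq2 (adjusted p = 0.021) and lost with the replicate block (adjusted p = 0.11, edgeR).

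Outside liver the members followed 3 courses, shown by *Alb*, *Apoa1*, and *Ttr*. Across the 32 groups, each member was correlated with the mean of the other 9 on the log2(mean CPM + 1) scale. Pearson's r was 0.92 to 0.98 for 8 members and 0.62 for both *Ttr* and *Apoa1*. The groups share liver's high value, and r is given as a description only.

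**Figure D4:**
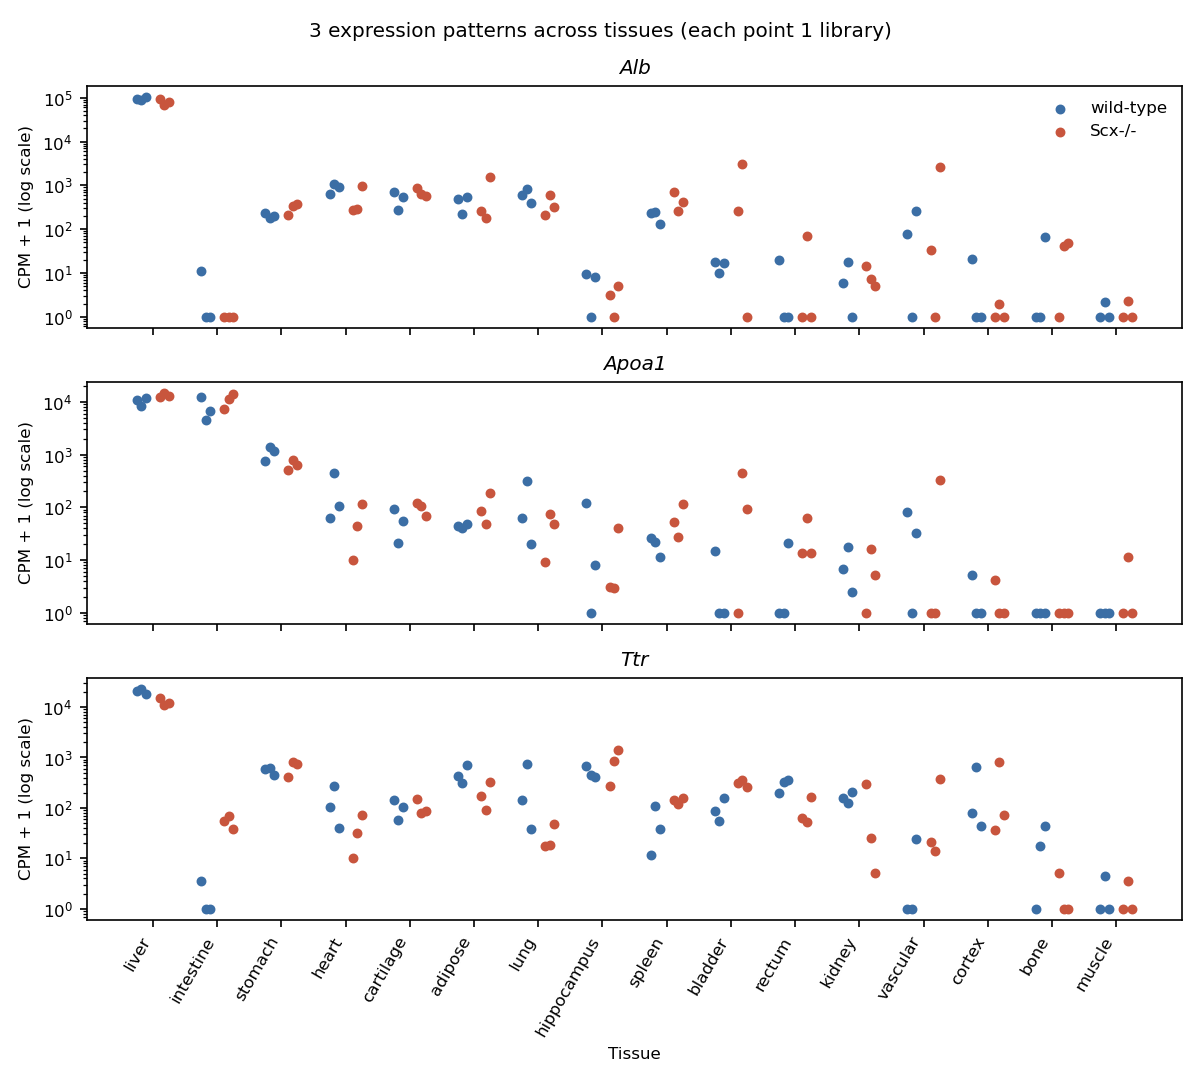
CPM + 1 on a log axis of *Alb*, *Apoa1*, and *Ttr* in each of the 96 libraries, by tissue and genotype, with tissues ordered by the median sum of the 10 members. *Apoa1* in intestine, where *Alb* is near 0, overlaps with its values in liver, and *Ttr* is counted in hippocampus, rectum, kidney, and cortex libraries whose *Alb* is low or at 0.

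*Apoa1* was at 12461, 4452, and 6643 CPM in wild-type intestine and at 7479, 11261, and 14113 CPM in Scx-/- intestine. These values overlapped with the 8497 to 14754 CPM of liver, and the genotypes overlapped. *Apoa1* was the member called higher in intestine than in the other tissues without liver (adjusted p = 2.0e-41, edgeR, beside 6.55% of all genes), and it stayed called with the other tissues as 1 group (1.6e-11). It made up 98.8% to 99.9% of the members' counts in intestine. *Alb* had a count in 1 of the 6 intestine libraries, at 10.3 CPM, and *Apoa2* had 0 to 36.4 CPM.

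Its neighbours on chromosome 9 did not all share this pattern. *Apoa4*, another enterocyte apolipoprotein, had 9988 to 57873 CPM in intestine and 54.4 to 268 CPM in liver. *Apoc3*, an inhibitor of lipoprotein lipase, was high in both, at 1033 to 6097 and 2550.4 to 4208 CPM. *Apoa5* was at 1210.2 to 2832 CPM in liver and at 0 in all 6 intestine libraries. The enterocyte list summed to 22127 to 92224 CPM in intestine, led by *Apoa4*, *Fabp2*, and *Fabp1*.

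Stomach ranked next for *Apoa1*, with 749, 1385, and 1178 CPM in wild-type and 501, 796, and 633 CPM in Scx-/- mice. The genotypes overlapped and did not pass (adjusted p = 0.48, edgeR, beside 0.0609% of genes called in stomach). The enterocyte list summed to only 209 to 562 CPM there. All other tissues had *Apoa1* at 446 CPM or less.

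Over the 30 groups without liver, the genes most like *Apoa1* among 15322 candidates were *Fabp1* (Pearson's r = 0.89), *Cyp3a11* (0.86), and *Apoc3* (0.86), on the log2(mean CPM + 1) scale. For *Ttr* they were *Clu* (0.74), *Sgsm3* (0.70), and *Tctn2* (0.64). Over all 32 groups, the mean profile of the members was most like *Hpx* (0.97), *Mat1a* (0.95), *Serpinc1* (0.95), *Gc* (0.94), and *F2* (0.94) among 1230 genes with at least 100 CPM in liver. The r values over 32 groups describe groups that share the liver value. Those over 30 groups are the highest picked from 15322 candidates and are given as a description only.

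By the median, *Ttr* outside liver was highest in stomach and hippocampus. In hippocampus it was at 675, 449, and 413 CPM in wild-type and 271, 859.7, and 1434 CPM in Scx-/- mice, and in stomach at 579, 607, and 439 against 404, 802, and 734 CPM. The genotypes overlapped in both tissues. Adipose (89.9 to 722 CPM), bladder (53.5 to 349.5 CPM), rectum (52.0 to 362 CPM), and kidney (4.12 to 302 CPM) followed, and muscle was lowest with a count in 2 of 6 libraries. Neighbours in this order overlapped.

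In the joint fit *Ttr* was called higher in hippocampus than in the other tissues without liver (adjusted p = 5.4e-12, edgeR, beside 22.3% of all genes). With those tissues as 1 group it was not (log2 fold change 1.69, SE 0.73, adjusted p = 0.088). Hippocampus and cortex did not differ in the test (log2 fold change 0.91, SE 0.52, adjusted p = 0.49, beside 0.513% of genes called). Cortex was at 77.8, 638, and 43.8 CPM in wild-type and 35.4, 809, and 72.0 CPM in Scx-/- mice, so that replicate 2 of each genotype stood apart from the others. Without the libraries numbered 2, which leaves out the cortex libraries that stood apart, hippocampus was higher by 3.00 on the log2 scale (adjusted p = 2.3e-07, edgeR). Without those numbered 1 or 3 it was higher by 0.46 and 0.20 and not called. Of the alternatives, the fit without libraries numbered 2 was the 1 called, and 19 were not.

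Many markers of the choroid plexus were low or at 0 in these brain libraries, and some were counted in single libraries. *Kcne2* and *Slc4a5*, counted in 9 and 12 of the 96 libraries, had no count in the 12 of cortex and hippocampus. *Kl* had no count in any of the 96 libraries, kidney included, and gives no information here. *Folr1* was counted in 3 of the 12, at 1.56 CPM in wild-type replicate 2 of cortex and at 3.91 and 7.84 CPM in Scx-/- replicates 2 and 3 of hippocampus, whose *Ttr* was 638, 859.7, and 1434 CPM. It was at 0 in the other 9, with *Ttr* at 35.4 to 809 CPM. *Enpp2*, which oligodendrocytes also express, made up most of the list sum at 72.3 to 444 CPM. In hippocampus *Clic6* (0 to 83.9 CPM, counted in 2 of 6 libraries) and *Prlr* (0 to 74.4 CPM, in 1) followed. *Otx2* reached 25.3 CPM there, and *Slc13a4* 26.0 CPM in cortex. In the library with the highest *Ttr*, Scx-/- replicate 3 of hippocampus, *Enpp2* was 219 of 325 CPM of the list. In Scx-/- replicate 2 of cortex, with *Ttr* at 809 CPM, it was 315 of 332 CPM. *Alb* stayed at 0 to 19.3 CPM in cortex and 0 to 8.43 CPM in hippocampus. The part of choroid plexus in these *Ttr* levels was not tested.

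In other tissues with *Ttr*, endocrine genes from a list written after *Ttr* levels were seen were read beside it. The libraries labelled adipose held 428050 to 559914 CPM of pancreatic acinar genes, led by *Ctrb1*, *Cela2a*, and *Cela1*, and 381 to 2940.1 CPM of endocrine genes, among them *Ins2* at 264 to 2419 CPM. Stomach held 1565 to 3450 CPM of endocrine genes, including *Ghrl* at 909 to 2383 CPM. Rectum had 38.1 to 583 CPM, bladder 0 to 5.10 CPM, and kidney 0 to 18.7 CPM of endocrine genes. The list did not follow *Ttr* across tissues, since intestine held 199.9 to 1094 CPM of it with *Ttr* at 0 to 66.6 CPM, and it was also counted in cortex and hippocampus (1048 to 1586 CPM). The part of endocrine cells was not tested.

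In kidney the joint fit called *Fga* higher than in the other tissues without liver (adjusted p = 0.021, edgeR, beside 23.5% of all genes). *Fga* was at only 10.9 CPM in kidney by the median and at 61.8 CPM in heart. With the other tissues as 1 group its sign was negative (log2 fold change -0.45, SE 1.06, adjusted p = 0.88), and it was not called. Kidney also held 11685 to 21004 CPM of the hepatocyte enzyme list, with *Alb* at 0 to 17.05 CPM.

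*Alb* and *Ahsg* were found together at low level in many organs. At least 100 CPM of *Alb* were counted in 40 of the 90 libraries outside liver. These were all 6 libraries each of adipose, cartilage, heart, lung, spleen, and stomach, and 2 libraries each of bladder and vascular samples. In the other 50 libraries *Alb* was at 76.1 CPM or less, with no count in 26.

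In the 40 libraries the ratio of *Ahsg* to *Alb* was 0.080 to 0.868 with a median of 0.371, beside 0.347 to 0.528 with a median of 0.378 in liver. In cartilage, *Alb* made up 43.4% to 49.8% of the members' counts and *Ahsg* 11.3% to 18.5%, beside 40.8% to 51.4% and 16.9% to 21.6% in liver. Stomach differed, since *Apoa1* (32.1% to 60.4%) and *Ttr* (21.9% to 37.2%) led there and *Alb* made up 7.96% to 18.6%. Shares varied elsewhere too. Over the 32 of these libraries with at least 100 counts of the members, *Ttr* made up 1.42% to 47.3% (median 9.71%), beside 6.49% to 12.1% in liver. *Apoa2* made up 0% to 21.1% (median 5.38%), beside 3.75% to 7.47% in liver.

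Hepatocyte enzyme genes were counted beside *Alb* in these libraries. In the 40 libraries with at least 100 CPM of *Alb*, 4 to 20 of the 20 enzymes had a count (median 11), and their sum was 74.4 to 3532 CPM. The 26 libraries with no *Alb* count had 0 to 12 of the 20 enzymes (median 4.5), at a sum of up to 12414 CPM in kidney. Since kidney and intestine express part of this list, its sum does not mark hepatocytes in every tissue. The source of the low *Alb* and *Ahsg* counts was not tested.

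**Figure D5:**
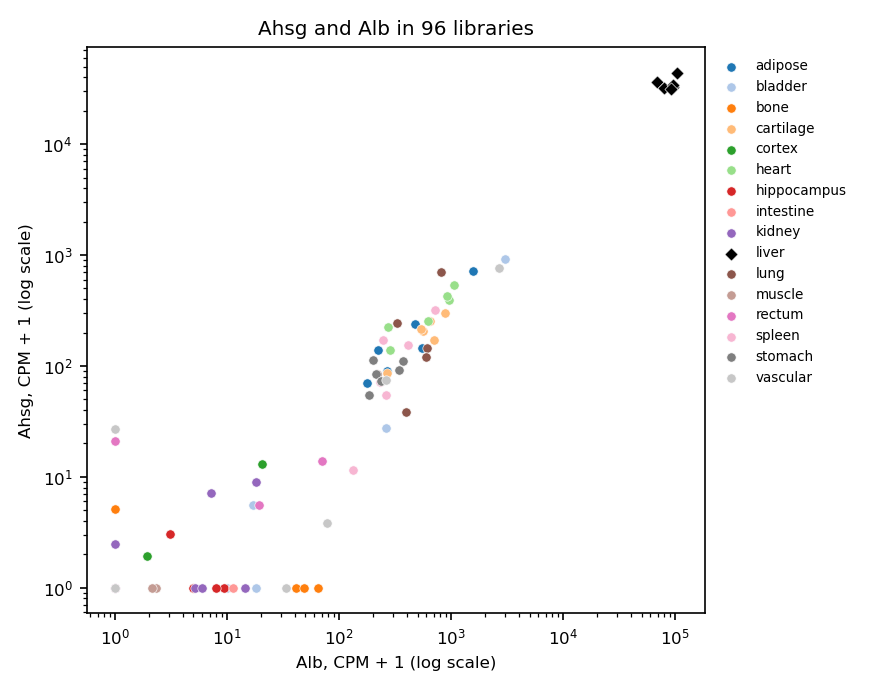
*Ahsg* against *Alb* in each of the 96 libraries, both as CPM + 1 on log axes, coloured by tissue, with liver as black diamonds. Libraries of adipose, cartilage, heart, lung, spleen, and stomach lie between 100 and 2000 CPM of *Alb* with *Ahsg* below it, and those of intestine, muscle, cortex, and hippocampus lie near the origin.

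Over all 16 tissues, 128 tests of a member between genotypes were possible and 5 were called, *Apoa2* in liver and 4 members in bladder. Bladder had 0.112% of 15160 genes called. *Apoa2*, *Fga*, *Serpina1c*, and *Serpina1d* had no count in the 3 wild-type bladders and were counted in Scx-/- bladders, with adjusted p of 6.3e-06, 0.0021, 0.00047, and 0.00047 by edgeR. They passed the filter on low values through Scx-/- libraries alone, so no fold is given and the 4 calls are not read as a difference between the genotypes.

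The values came mostly from 1 library. *Apoa2* was at 24.2, 318, and 0 CPM in Scx-/- bladder, *Fga* at 12.1, 222, and 0 CPM, *Serpina1c* at 2.42, 259, and 0 CPM, and *Serpina1d* at 0, 287, and 0 CPM. *Alb* was at 259, 3046, and 0 CPM in the same libraries and at 17.01, 8.92, and 16.01 CPM in wild-type bladder, and it did not pass (adjusted p = 0.80, edgeR). Replicate 2 also had counts of 19 of the 20 hepatocyte enzymes, against 7 to 8 in the other Scx-/- bladders and 6 to 9 in wild-type bladders. Without Scx-/- replicate 2, or with filterByExpr, a stricter filter on low counts, 0 members were called in bladder.

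*Ttr* in bladder did not follow *Alb*. It was at 85.0, 53.5, and 155 CPM in wild-type and 313, 350, and 263 CPM in Scx-/- bladder, without overlap, including the Scx-/- library with no *Alb* count. The log2 fold change of 1.60 (SE 0.42) had an adjusted p of 0.096 by edgeR.

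In the other 14 tissues 0 members were called by edgeR, and the only call by DESeq2 in any tissue was in bladder. An unadjusted p under 0.05 was found in 22 of the 128 tests, beside 4.01% of the 219996 tests of any gene in the 16 tissues. Of the 22, 6 were in bladder (4.33% of all genes there), 5 in vascular samples (4.34%), and 3 in liver. The vascular samples were set aside in the later comparisons of the study because their genes pointed to admixed brown fat. Among these 14 tissues, the shares of all genes called by edgeR were highest in rectum (0.441%) and kidney (0.195%). They were 0.0482% in muscle, 0.0391% in heart, 0.0329% in vascular samples, and 0.0222% in cartilage. Adipose had 0.0091%, lung 0.00727%, spleen 0.0072%, and hippocampus 0.00708%, and the share was 0% in bone, intestine, and cortex. A vascular Scx-/- library, replicate 3, held 2694 CPM of *Alb*, 760.1 CPM of *Ahsg*, and 257 CPM of *Fgg*, against 0 to 261 CPM of *Alb* in the other 5 vascular libraries.

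Whether the genotype difference of a member varied between tissues was tested by the interaction of tissue and genotype over all 32 groups. For the 10 members the adjusted p was 0.62 to 0.97 (edgeR, beside 0.0669% of genes called), so a difference between tissues was not shown, and the liver result of *Apoa2* is not shown to differ from other tissues.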

How the data were processed

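The deposited values are whole-number counts per gene symbol that the authors obtained from MuSeq reads of 96 libraries, aligned to mm10 by Bowtie2 (default settings) and assigned to genes by HTSeq. The sources used here do not give versions, annotation, strand setting, molecular identifiers, sex, or which libraries share a mouse, so p-values measure the spread between libraries, which may be technical.

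From the counts, CPM was computed on library totals (11244 to 1658192). Genotypes were compared per tissue with edgeR 4.0.16 (R 4.3.3, TMM scaling, quasi-likelihood test, genes at 0 in all 6 libraries removed, Benjamini-Hochberg adjustment over the tissue), called under 0.05. Tissues were compared in a joint fit of 32 groups after filterByExpr. DESeq2 1.42.0, the tool of the authors, other scalings, a replicate block, and leaving out libraries were alternatives. The steps were run on simulated counts, and the outcome is not reported here. The simulated joint fit gave each gene 1 level in all groups outside liver, unlike the many real groups without a count. Python 3.11.15, scipy 1.17.1, biopython 1.88, and matplotlib 3.10.9 served for permutation tests, alignment, and plots.

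Named are all members, the 3 most abundant genes of each list in its tissue and up to 5 called in liver, *Scx* in liver, and the genes most like the members. The members and lists were chosen with earlier results of these data known, and the endocrine list, the ratios of members, the sex marker term, and the fit with other tissues as 1 group were added after values were seen. Same-numbered libraries did not deviate together in any tissue (every pair of 1 number had a correlation of 0.035 or less), so the main fit had no block. Not every gene that the naming rule covers is reported here.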

Additional observations from a re-analysis of the deposited data

How the results depend on the processing

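The number of members called in liver was 1, and it was 2 with RLE scaling and 0 with filterByExpr, DESeq2, or the joint fit, and 0 to 3 without 1 library. Over all tissues the number of calls of a member was 5 in the main fits. It was also 5 in the joint fit, all in bladder, where the call of *Apoa2* in liver was lost. The number became 2 with the replicate block, 1 with DESeq2, 0 with filterByExpr, and 1 to 7 without 1 library. In bladder the 4 calls were 5 in the joint fit and became 1 with the replicate block, 1 with DESeq2, 0 with filterByExpr, and 0 to 5 without 1 library. The replicate block kept *Apoa2* called in liver (adjusted p = 0.029).

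Signs turned for members that were not called. The log2 fold change of *Ahsg* was -0.056 with RLE scaling or DESeq2, -0.12 with library totals, -0.031 with filterByExpr, and -0.047 (without wild-type replicate 2) to 0.19 without 1 library. That of *Alb* was 0.062 in the joint fit, 0.027 with the sex marker term (added after the data were seen), and -0.21 to 0.060 (without Scx-/- replicate 2) without 1 library, that of *Fga* 0.0025 in the joint fit, and that of *Serpina1c* -0.26 (without wild-type replicate 1) to 0.60 without 1 library. RLE scaling and DESeq2 moved the median of all genes by -0.11, library totals by -0.18 and the joint fit by 0.13, and these members moved by about as much. The sex marker term moved that median by 0.16 and filterByExpr by -0.045. For filterByExpr and the settings without 1 library the cause was not tested.

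All 10 members were called higher in liver than in the other tissues in the main fit and its 8 alternatives, and the 1 call in intestine was kept in number. The count of 1 in kidney was 0 with RLE scaling or with the other tissues as 1 group, and 1 to 2 without 1 replicate number. The count of 1 in hippocampus was 0 with the other tissues as 1 group, an alternative added after the data were seen. The *Ttr* difference of hippocampus over cortex was 3.00 without replicate 2 and ran from 0.20 to 3.00 without libraries. The share of liver counts kept its sign in all 8 alternatives (-2.69 to -0.85 percentage points without 1 library). Depth limited the tissues with few counts, where 3 counts over a bone or intestine group of 6 stand for over 4 CPM.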
